A study of Homo sapiens with 24 samples.

Results

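The genes described here are small nucleolar RNA (snoRNA) host genes, read after exposure of human colorectal carcinoma cells to isoginkgetin. Of 9 host genes considered (GAS5, SNHG1, SNHG5, SNHG7, SNHG8, SNHG12, SNHG15, SNHG16 and ZFAS1), 2 had probe-set rows annotated with exactly 1 symbol. These were SNHG8, under its own symbol, and ZFAS1, under ZNFX1-AS1, an older symbol that RefSeq lists as a synonym of ZFAS1. They form 2 of 18652 genes with 1 symbol and at least 3 exon probe sets on the array, and hold 28 probe sets. The rows of another 6 host genes list the host together with the snoRNAs inside it, and every such snoRNA lies within the host's RefSeq interval. These rows are called the GAS5, SNHG1, SNHG5, SNHG7, SNHG12 and SNHG15 loci, since their probe sets cannot be assigned to the host transcript or to the snoRNA from the annotation. SNHG16 had a gene-level row, shared with SNORD1C, and no probe-set row under its symbol.

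Isoginkgetin, a biflavonoid from plants, is known as a general inhibitor of the splicing of pre-mRNA. HCT116p53-/- cells, a p53-null subline, and the parental HCT116 cells received 30 µM isoginkgetin, an equivalent volume of the vehicle DMSO, or nothing (untreated), for 8 h. Each of the 6 groups was measured on 2 arrays from independent experiments with the Affymetrix Human Transcriptome Array 2.0, which carries exon probe sets and probe sets that span exon junctions. A set here means the 3 arrays that share a line and a replicate number. The subline is a single p53-null line, and both lines carry the other genetic changes of HCT116. In bulk RNA of this kind, a change in the cells present and a change in RNA per cell cannot be told apart.

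The arrays labelled HCT116 replicate 1 went against their label. All 7 epithelial markers examined lay below the other sets there, with a mean level of 5.03 log2 against 11.70 to 11.88, and all 8 fibroblast markers lay above them, with a mean of 6.28 against 3.35 to 3.60. The summed levels were 35.19 against 81.90 to 83.13 for the epithelial markers, and 50.21 against 26.81 to 28.79 for the fibroblast markers. The highest fibroblast markers in this set were VIM (12.56), THY1 (7.79) and FBN1 (7.33). COL1A1, COL1A2, PDGFRB, LUM and DCN lay at 4.02 to 4.81 log2, near the array medians given below. EPCAM, an epithelial adhesion molecule, lay at 4.62 against 12.00 to 12.17. The part of this set in the results was read only by refits without it, and its cause was not tested. Each call with all sets named below is also given without this set. Such a refit has 1 array per treatment in HCT116. Its spread comes from the HCT116p53-/- arrays, and its p-values measure no spread within HCT116. Median levels of the 12 arrays ran from 3.29 to 4.17 log2. With 2 arrays a group, precision is limited by their number.

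Host genes carry snoRNAs in their introns. Splicing removes the introns, and the snoRNAs are trimmed out of them to guide the methylation (box C/D snoRNAs) or pseudouridylation (box H/ACA snoRNAs) of ribosomal RNA. The spliced host RNA has little coding potential but can be loaded onto ribosomes, and several host RNAs, GAS5 and the SNHG1 transcript among them, are known to be broken down by nonsense-mediated decay, which depends on translation. Their levels therefore depend on transcription, splicing and translation at once. Many host genes also begin with the pyrimidine tract of the TOP class, which they share with ribosomal protein genes.

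The start regions of the 8 host genes with an entry in the RefSeq promoter table are shown because this start sequence is the feature that links host genes to the translation machinery. Each window runs from 40 bases before to 30 bases after the annotated start on GRCh38.p14, 5′ to 3′ on the gene's strand. Capitals mark the unbroken run of C or T from the first transcribed base, and a TATAA in the 40 bases before it.
SNHG8 (chr4:118278722-118278791, plus strand): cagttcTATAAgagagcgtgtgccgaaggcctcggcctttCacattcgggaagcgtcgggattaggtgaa
ZFAS1 (chr20:49278602-49278671, plus strand): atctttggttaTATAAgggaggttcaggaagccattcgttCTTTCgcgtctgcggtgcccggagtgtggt
SNHG5 (chr6:85678704-85678773, minus strand): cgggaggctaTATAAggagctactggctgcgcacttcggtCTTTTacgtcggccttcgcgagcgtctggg
SNHG7 (chr9:136728155-136728224, minus strand): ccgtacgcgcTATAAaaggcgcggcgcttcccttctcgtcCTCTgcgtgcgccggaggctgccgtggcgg
SNHG12 (chr1:28581844-28581913, minus strand): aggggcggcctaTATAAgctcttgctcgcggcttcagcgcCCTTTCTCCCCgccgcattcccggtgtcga
SNHG1 (chr11:62855856-62855925, minus strand): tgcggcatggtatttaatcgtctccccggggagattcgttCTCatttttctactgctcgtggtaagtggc
GAS5 (chr1:173869016-173869085, minus strand): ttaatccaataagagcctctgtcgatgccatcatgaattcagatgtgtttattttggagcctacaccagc
SNHG16 (chr17:76557724-76557793, plus strand): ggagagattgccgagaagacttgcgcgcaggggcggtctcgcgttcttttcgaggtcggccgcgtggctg
A start at C followed by an unbroken run of at least 4 pyrimidines in all was present in 4 of the 8 (ZFAS1, SNHG5, SNHG7 and SNHG12) and in 5.45% of 35116 promoter windows. The run was 11 bases long in SNHG12, 5 in ZFAS1 and SNHG5, and 4 in SNHG7. TATAA on the gene's strand was present in 5 of the 8 (the same 4 genes and SNHG8) and in 4.34% of all windows, and on either strand in 5 of the 8 and 5.48% of all windows; the search had no overlap with the pyrimidine run. The annotated start of GAS5 is an A and that of SNHG16 a G. These are matches of letters to the annotated start, and a host gene can have other starts.

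The first comparison set isoginkgetin against DMSO at the 2 genes with rows of their own. The mean of the junction probe sets of SNHG8, the host of SNORA24, lay higher with isoginkgetin in all 4 sets, as did 2 of its 4 junction probe sets taken singly. The mean of the 4 was 7.49 and 8.24 log2 in isoginkgetin-treated HCT116p53-/- cells, against 7.21 and 7.99 in DMSO-treated HCT116p53-/- cells and 7.29 and 8.05 in untreated HCT116p53-/- cells. In HCT116 the isoginkgetin arrays had 7.10 and 7.92, against 6.85 and 7.54 with DMSO and 6.97 and 7.50 untreated. The treatment groups overlapped in each line, because the 2 replicates of a line lay further apart than the treatments. Within sets the difference was 0.29 ± 0.06 log2 (SD, n = 4 sets). limma with the set as a block gave an adjusted p of 0.10, and limma on group means without the block gave 1.00.

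The mean of the 5 exon probe sets of SNHG8 was 10.40 and 10.67 log2 in isoginkgetin-treated HCT116p53-/- cells, against 10.36 and 10.48 with DMSO and 10.07 and 10.49 untreated. In HCT116 it was 8.75 and 10.12 with isoginkgetin, against 8.83 and 9.94 with DMSO and 8.82 and 10.09 untreated. The set labelled HCT116 replicate 1 lay lowest under every treatment. The difference from DMSO was 0.08 ± 0.13 log2 (SD, n = 4 sets), within the spread between sets (limma with block, adjusted p = 0.41).

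ZFAS1 runs antisense to the start of ZNFX1 and hosts the SNORD12 snoRNAs. Its 9 exon probe sets averaged 10.15 and 9.89 log2 in isoginkgetin-treated HCT116p53-/- cells, against 10.04 and 9.77 with DMSO and 9.99 and 9.87 untreated. In HCT116 the values were 9.83 and 10.02 with isoginkgetin, against 9.67 and 9.94 with DMSO and 9.63 and 10.02 untreated. Treated and DMSO arrays overlapped in each line, although isoginkgetin lay above DMSO within each set, by 0.12 ± 0.03 log2 (SD, n = 4 sets; limma with block, adjusted p = 0.15). With the median of its probe sets in place of the mean, the difference had the other sign, −0.249 log2. Without the HCT116 replicate 1 arrays the fitted difference was 0.10 log2 (limma with block, adjusted p = 0.18).

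The 10 junction probe sets of ZFAS1 averaged 9.88 and 9.87 log2 in isoginkgetin-treated HCT116p53-/- cells, against 9.25 and 9.78 with DMSO and 9.54 and 9.92 untreated. In HCT116 they averaged 9.32 and 9.99 with isoginkgetin, against 9.07 and 9.74 with DMSO and 9.04 and 9.63 untreated. The HCT116p53-/- groups with isoginkgetin and DMSO did not overlap and the HCT116 ones did. The difference from DMSO was 0.31 ± 0.23 log2 (SD, n = 4 sets; limma with block, adjusted p = 0.16), with 0.63 and 0.09 log2 in the HCT116p53-/- sets and 0.25 log2 in both HCT116 sets. Its overlapping partner ZNFX1, which encodes a zinc finger helicase, had exon means 0.15 ± 0.20 log2 and junction means 0.21 ± 0.15 log2 below DMSO (SD, n = 4 sets), lower in all 4 sets. No source used here gives the strand and place of the probes, so signal of the overlapping part cannot be assigned.

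**Figure D1:**
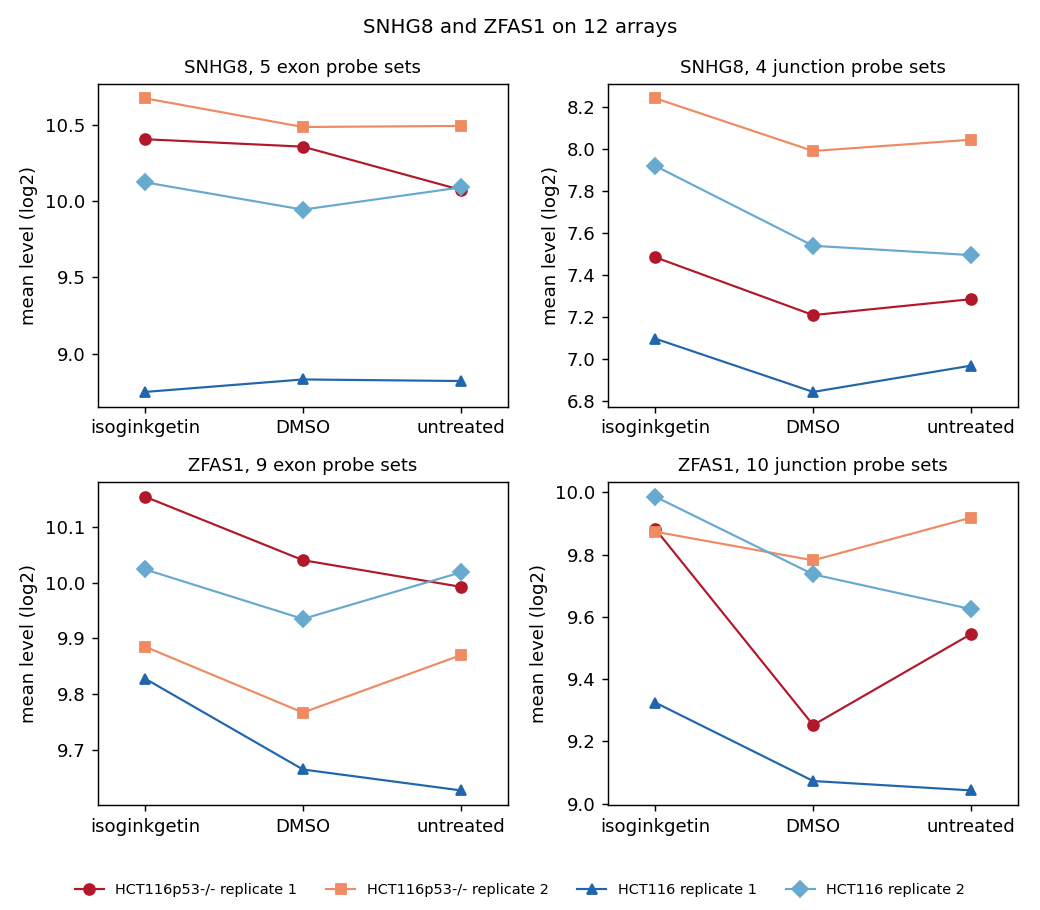
Mean log2 level of the exon probe sets (left) and junction probe sets (right) of SNHG8 (top) and ZFAS1 (bottom) with isoginkgetin, DMSO and no treatment; each line joins the 3 arrays of 1 set, and each panel has its own axis range. The isoginkgetin array lies above the DMSO array of its set everywhere except in the SNHG8 exon means of HCT116 replicate 1.

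No host gene with rows of its own was called. limma on group means, adjusted over all genes at a threshold of 0.05, called neither gene in either line, in the mean of both lines, in DMSO against untreated cells or in the difference between the lines. The smallest unadjusted p of the 2 genes for isoginkgetin against DMSO over both lines was 0.51 in exon means without the block and 0.024 with it, both for ZFAS1. With the block, 4.39% of 19528 annotation groups were called in exon means over both lines, 0.307% in HCT116p53-/- and 3.41% in HCT116, so calls were possible in this measure, and none fell on the 8 host loci. Without the block, limma called 0 groups in exon means over both lines (31 at an unadjusted p under 0.05).

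At the loci annotated with host and snoRNA symbols together, the junction probe sets of GAS5 and SNHG1 rose with isoginkgetin. This measure was added after junction values of the host genes had been seen, and its test is the one with the set as a block. The GAS5 locus was 1.44-fold higher than with DMSO, a rise of 0.52 ± 0.17 log2 (SD, n = 4 sets; limma with block, adjusted p = 0.049). The SNHG1 locus was 1.56-fold higher, a rise of 0.64 ± 0.21 log2 (SD, n = 4 sets; limma with block, adjusted p = 0.049). SNHG5, with 0.57 ± 0.15 log2 (SD, n = 4 sets; limma with block, adjusted p = 0.057), missed the threshold. So 2 of 8 loci were called higher, where 48 of 19066 annotation groups, 0.252%, were called higher in the same comparison. Without the block 0 groups were called (0%; 69 at an unadjusted p under 0.05, limma).

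Both calls depended on the fit, and both were lost when any 1 of the 4 sets was left out. Over these 4 fits the GAS5 difference ran from 0.44 to 0.60 log2, with adjusted p between 0.053 and 0.51, and the SNHG1 difference from 0.62 to 0.67 log2, with adjusted p between 0.094 and 0.44 (limma with block). Both were also lost when only junction probe sets with a mean level of at least 5 log2 were averaged, with 0.54 log2 for the 19 such probe sets of GAS5 (adjusted p = 0.066) and 0.63 log2 for the 16 of SNHG1 (limma with block, adjusted p = 0.082). Without the HCT116 replicate 1 arrays, the fitted junction differences were 0.60 log2 for GAS5 (adjusted p = 0.053), 0.62 log2 for SNHG1 (adjusted p = 0.094) and 0.63 log2 for SNHG5 (adjusted p = 0.074), so no locus was called, where 0.388% of groups were called higher (limma with block). Within single lines no locus was called in junction means (limma with block; 6 groups or 0.0315% called higher in HCT116p53-/-, and 2 groups or 0.0105% in HCT116). Unadjusted p was 0.0011 for GAS5 in HCT116p53-/- and 0.00043 for SNHG1 in HCT116.

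GAS5 hosts box C/D snoRNAs, and 8 of them are named on its rows. Its 21 junction probe sets averaged 11.70 and 11.25 log2 in isoginkgetin-treated HCT116p53-/- cells, against 11.03 and 10.79 with DMSO and 11.03 and 10.82 untreated. In HCT116 they averaged 11.46 and 11.48 with isoginkgetin, against 11.15 and 10.83 with DMSO and 10.87 and 10.83 untreated. All 4 isoginkgetin arrays lay above all 8 others, among which the highest value was 11.15. The 52 exon probe sets of the locus averaged 11.36 and 11.01 log2 with isoginkgetin in HCT116p53-/- cells, against 11.30 and 10.86 with DMSO. In HCT116 the exon means were 11.42 and 10.98 with isoginkgetin, against 11.18 and 10.56 with DMSO. The exon groups overlapped, and the exon difference was 0.22 ± 0.15 log2 (SD, n = 4 sets; limma with block, adjusted p = 0.11). Without the HCT116 replicate 1 arrays it was 0.26 log2, from 0.11 log2 in HCT116p53-/- cells and 0.42 log2 in the 1 remaining HCT116 set.

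The SNHG1 locus also names 8 box C/D snoRNAs. Its 21 junction probe sets averaged 9.40 and 9.08 log2 in isoginkgetin-treated HCT116p53-/- cells, against 8.88 and 8.66 with DMSO and 8.75 and 8.96 untreated. In HCT116 they averaged 9.33 and 9.86 with isoginkgetin, against 8.47 and 9.08 with DMSO and 8.41 and 9.19 untreated. Isoginkgetin and DMSO arrays did not overlap in either line. The 54 exon probe sets averaged 12.62 and 11.72 log2 with isoginkgetin in HCT116p53-/- cells, against 12.67 and 11.59 with DMSO. In HCT116 the exon means were 11.97 and 12.01 with isoginkgetin, against 11.43 and 11.59 with DMSO. The exon difference from DMSO was small in HCT116p53-/- cells and larger in HCT116 cells, 0.04 against 0.48 log2. The difference between the lines was not called (limma with block, adjusted p = 0.48). Against untreated cells the order was the reverse, 0.33 log2 in HCT116p53-/- cells and 0.11 log2 in HCT116 cells. The HCT116 value against DMSO was 0.54 log2 in replicate 1, whose arrays went against their label, and 0.43 in replicate 2.

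SNHG5 hosts SNORD50A and SNORD50B. Its 8 junction probe sets averaged 11.05 and 11.40 log2 in isoginkgetin-treated HCT116p53-/- cells, against 10.60 and 10.92 with DMSO and 10.43 and 11.14 untreated. In HCT116 they averaged 11.29 and 11.18 with isoginkgetin, against 10.72 and 10.40 with DMSO and 10.99 and 10.51 untreated. All 4 isoginkgetin arrays lay above the 4 DMSO arrays, with 11.05 as the lowest of the isoginkgetin arrays and 10.92 as the highest of the DMSO arrays, and 1 untreated array, at 11.14, lay among the isoginkgetin ones. The exon difference was 0.15 ± 0.18 log2 (SD, n = 4 sets; limma with block, adjusted p = 0.34).

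**Figure D2:**
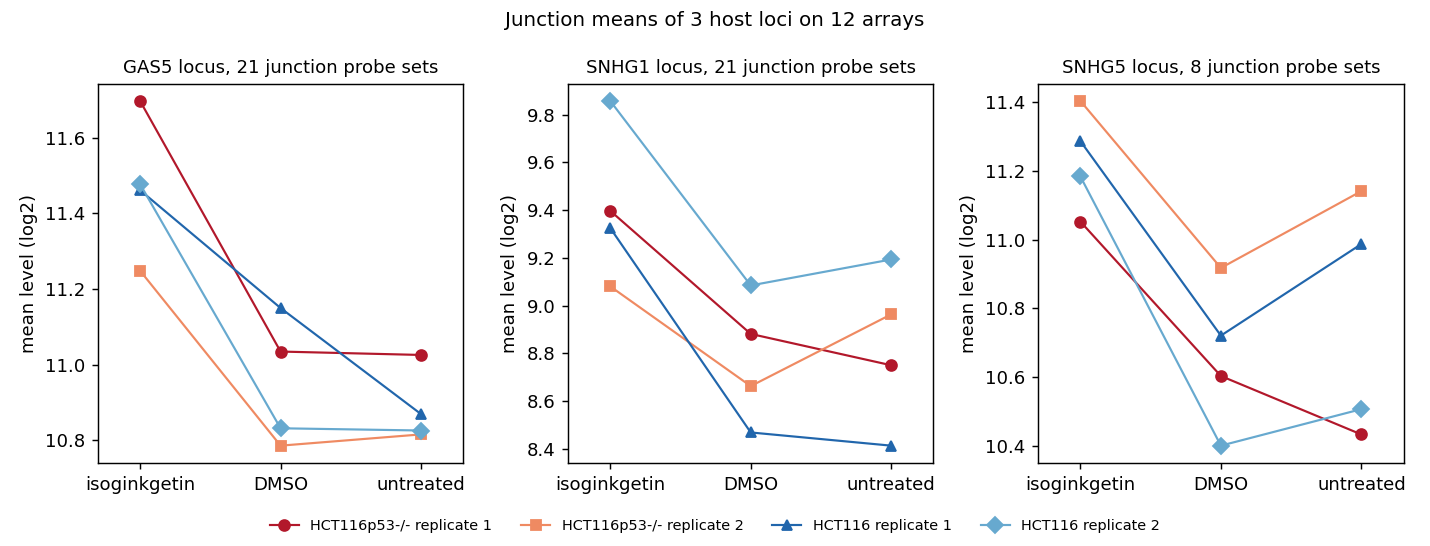
Mean log2 level of the junction probe sets of the GAS5, SNHG1 and SNHG5 loci with isoginkgetin, DMSO and no treatment; each line joins the 3 arrays of 1 set, and each panel has its own axis range. All 4 isoginkgetin arrays of GAS5 lie above the other 8 arrays, whose highest value is 11.15.

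The remaining 3 loci showed smaller or mixed differences. The junction mean of SNHG15, the host of SNORA9, differed from DMSO by 0.19 and 0.26 log2 in HCT116p53-/- cells and by 0.02 and 0.73 log2 in HCT116 cells, a mean of 0.30 ± 0.30 (SD, n = 4 sets; limma with block, adjusted p = 0.29). SNHG7, which hosts H/ACA snoRNAs, had differences of 0.29 and −0.09 log2 in HCT116p53-/- cells and −0.07 and 0.00 in HCT116 cells (limma with block, adjusted p = 0.87). SNHG12, another host of H/ACA snoRNAs, had differences of −0.23 and 0.35 log2 in HCT116p53-/- cells and −0.65 and 0.16 in HCT116 cells (limma with block, adjusted p = 0.78). The signs were mixed for SNHG7 and SNHG12. SNHG12 was the locus whose exon means lay below DMSO in all 4 sets, by 0.11 ± 0.10 log2 (SD, n = 4 sets; limma with block, adjusted p = 0.37). The exon mean of SNHG7 was 0.09 ± 0.14 log2 below DMSO (SD, n = 4 sets). Without the HCT116 replicate 1 arrays the exon difference of SNHG7 was −0.16 log2. It came from −0.02 log2 in HCT116p53-/- cells and −0.30 log2 in the 1 remaining HCT116 set.

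Seen over the 8 loci, junction means were higher with isoginkgetin than with DMSO in all 4 sets at 6 loci (SNHG8, ZFAS1, GAS5, SNHG1, SNHG5 and SNHG15), where 12% of 19066 annotation groups were. Exon means were higher in all 4 sets at 2 loci, GAS5 and ZFAS1, where 14.2% of groups were. The median difference over the loci was 0.30 log2 in junction means and 0.11 log2 in exon means, beside 0.01 log2 in both measures over all groups. The 8 loci were chosen as a family of like genes, share the same 12 arrays and are not independent, so these counts carry no test.

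**Figure D3:**
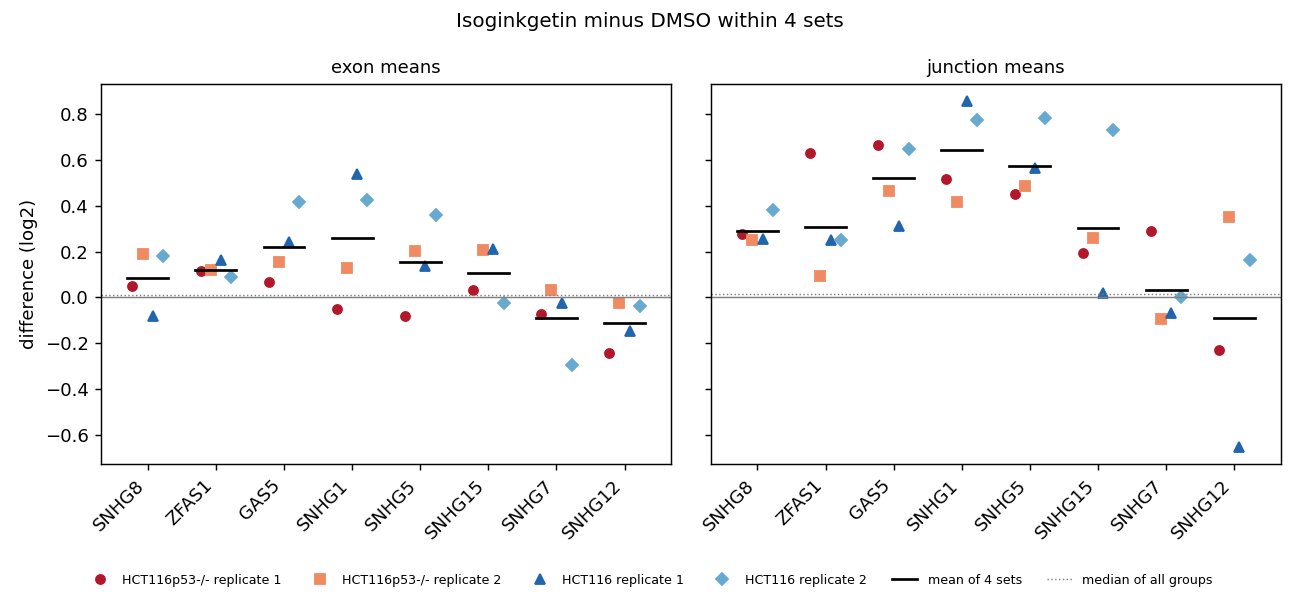
Isoginkgetin minus DMSO in log2 within each of the 4 sets (points) for the exon means (left) and junction means (right) of 8 host loci; bars are means of 4 sets and the dotted line is the median of all annotation groups. At GAS5, SNHG1 and SNHG5 the 4 junction points lie between 0.31 and 0.86 log2.

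The junction mean was also read relative to the exon mean of the same locus. At loci with several symbols the exon probe sets cannot be assigned to host or snoRNA. Exactly equal pairs were also more common for exon than for junction probe sets of the array, 32.8% against 3.57%. A rise of the host RNA and a change particular to junctions therefore cannot be told apart by this measure. Junction minus exon was higher with isoginkgetin in all 4 sets at 4 loci (SNHG8, GAS5, SNHG1 and SNHG5), where 8.74% of groups were. Its mean was above 0 at all 8 loci. The change of junction minus exon was 0.42 log2 at SNHG5, 0.38 at SNHG1, 0.30 at GAS5, 0.21 at SNHG8 and 0.18 at ZFAS1. None of these was called by limma with or without the block, and neither fit called any of the 19066 groups over both lines (1594 and 248 at an unadjusted p under 0.05). The smallest adjusted p among the loci with the block was 0.43, for SNHG1. In DMSO against untreated cells no locus was higher in all 4 sets in exon means, junction means or their difference, where 6.39%, 6.99% and 6.76% of groups were.

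Untreated cells gave a second control. The junction mean with isoginkgetin lay above that of untreated cells in all 4 sets at 4 loci (SNHG8, GAS5, SNHG1 and SNHG5), where 13.1% of groups did. The difference was 0.59 ± 0.11 log2 at GAS5, 0.59 ± 0.34 at SNHG1, 0.46 ± 0.21 at SNHG5 and 0.24 ± 0.13 at SNHG8 (SD, n = 4 sets each). ZFAS1 and SNHG15 each had 1 set below untreated, both HCT116p53-/- replicate 2, by 0.05 and 0.0036 log2. SNHG12 lay below untreated in all 4 sets, by 0.28 ± 0.29 log2.

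DMSO and untreated arrays differed in host exon means in 2 sets, in opposite directions. In HCT116 replicate 2, DMSO lay below untreated by 0.45 log2 at GAS5, 0.67 at SNHG1, 0.43 at SNHG5 and 0.52 at SNHG12. In HCT116p53-/- replicate 1, DMSO lay above untreated by 0.20 log2 at GAS5, 0.53 at SNHG1 and 0.31 at SNHG5. Isoginkgetin exon means of HCT116 replicate 2 were 0.04 log2 below untreated at GAS5 and 0.24 below it at SNHG1. The junction means of HCT116 replicate 2 differed between DMSO and untreated cells by 0.01 log2 at GAS5, −0.11 at SNHG1, −0.11 at SNHG5, −0.37 at SNHG12 and −0.55 at SNHG15. No group was called for DMSO against untreated cells in exon or junction means over both lines, with the block (640 and 846 at an unadjusted p under 0.05) or without it (1 and 4; limma).

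**Figure D4:**
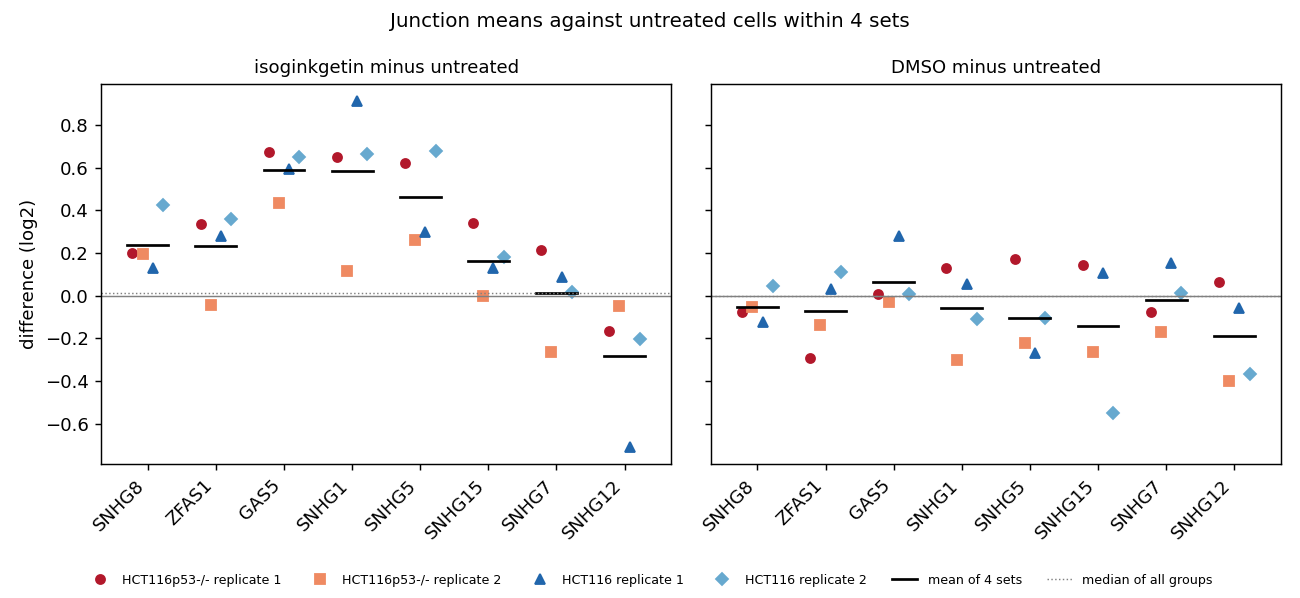
Junction means of 8 host loci in log2, as isoginkgetin minus untreated (left) and DMSO minus untreated (right), within each of the 4 sets (points); bars are means of 4 sets and the dotted line is the median of all annotation groups. At GAS5 the isoginkgetin points lie between 0.43 and 0.67 log2 and the DMSO points between −0.03 and 0.28 log2.

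Single probe sets showed how unevenly a locus responded. Of 84 junction probe sets at the 8 loci, 45 (53.6%) were higher with isoginkgetin in all 4 sets and 1 was lower in all 4. Of 192 exon probe sets, 59 (30.7%) were higher in all 4 sets and 8 were lower. Over the whole array 7.32% of junction and 2.76% of exon probe sets were higher in all 4 sets. Exactly equal values on the isoginkgetin and DMSO arrays of a set, which cannot count as higher, made up 32.8% of pairs for exon and 3.57% for junction probe sets of the array. At the 8 loci, equal pairs of exon probe sets were fewer, from 3.70% at SNHG1 to 22.7% at SNHG15. The exon shares of the loci and of the array are therefore not on equal terms. Of the 276 probe sets, 96 had an unadjusted p under 0.05 with the block and none was called after adjustment over 913055 probe sets (limma, smallest adjusted p = 0.22). Over the array 93352 had such a p and 0 were called.

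At SNHG8, the exon probe set PSR04008709 differed from DMSO by 0.50 and 0.51 log2 in HCT116p53-/- cells and by 0.43 and 0.36 log2 in HCT116 cells, which makes it the most even of the extremes named here. The lowest SNHG8 exon probe set, PSR04008706, differed by −0.17 and −0.18 log2 in HCT116p53-/- cells and by −0.37 and 0 in HCT116 cells. The highest SNHG8 junction, JUC04004605, differed by 0.57 and 0.80 log2 in HCT116p53-/- cells and by 0.16 and 1.14 log2 in HCT116 cells. Its levels on the 12 arrays, 3.69 to 4.98 log2, lay near the array medians of 3.29 to 4.17. The lowest, JUC04004607, averaged −0.13 ± 0.20 log2 (SD, n = 4 sets) at levels of 8.20 to 10.48 log2.

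At ZFAS1 the junction JUC20003089 differed by 0.50 and 0.54 log2 in HCT116p53-/- cells and by 0.72 and 0.53 log2 in HCT116 cells, and the exon probe set PSR20005621 by 0.50, 0.36, 0.70 and 0.26 log2 in the same order of sets. Exon probe set PSR20005626 lay on the other side, at −0.43 and −0.08 log2 in HCT116p53-/- cells and −0.39 and −0.44 log2 in HCT116 cells. All 10 ZFAS1 junctions had a mean difference above 0, with JUC20003088 the lowest at 0.07 ± 0.77 log2 (SD, n = 4 sets) and at low levels of 3.99 to 5.28 log2. Of its 9 exon probe sets, 5 were higher and 1 was lower in all 4 sets.

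At the larger loci, 16 of 21 GAS5 junctions, 15 of 21 SNHG1 junctions and 7 of 8 SNHG5 junctions were higher in all 4 sets. The GAS5 junction with the largest difference, JUC01028606, averaged 1.36 ± 0.85 log2, and the SNHG1 one, JUC11011680, 1.15 ± 0.40 (SD, n = 4 sets). The mean level of JUC01028606 over the 12 arrays was 10.84 log2, whereas that of JUC11011680 was 4.29 (2.99 to 5.92), near the array medians. Of the 21 GAS5 junctions JUC01028614 had the lowest mean, −0.31 ± 0.76 log2, with 0.55 and 0.07 in HCT116p53-/- cells and −0.71 and −1.15 in HCT116 cells. In SNHG5 the highest was JUC06011458 (0.98 ± 0.62 log2) and the lowest JUC06011461 (0.07 ± 0.41 log2). No SNHG7 or SNHG12 probe set of either kind was higher in all 4 sets.

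The largest single difference at any locus was a negative one at SNHG1. Exon probe set PSR11022097 was at 14.44 and 10.35 log2 in isoginkgetin-treated HCT116p53-/- cells, against 15.99 and 14.43 with DMSO and 9.48 and 11.78 untreated. In HCT116 it was at 11.51 and 8.06 with isoginkgetin, against 13.31 and 13.30 with DMSO and 13.95 and 13.10 untreated. It lay below DMSO in all 4 sets, with a mean difference of −3.17 ± 1.79 log2 (SD, n = 4 sets; limma with block, unadjusted p = 0.037, adjusted p = 0.45). In HCT116p53-/- cells its untreated arrays also lay below the DMSO ones. The median difference of the 54 exon probe sets of the locus was 0.36 log2.

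**Figure D5:**
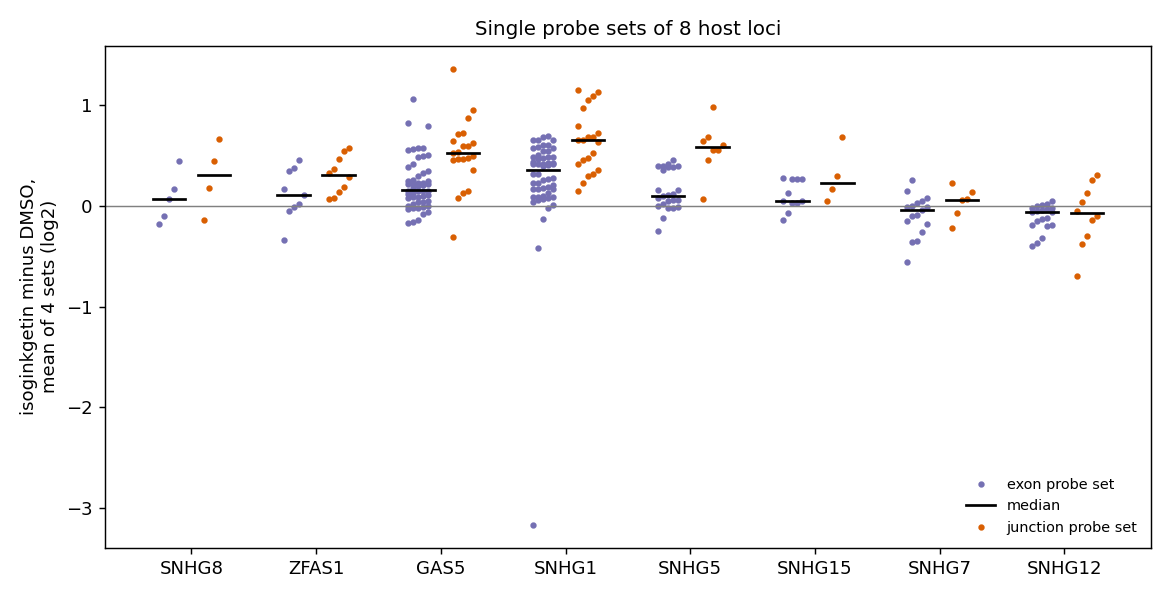
Isoginkgetin minus DMSO in log2, averaged over 4 sets, for each of the 192 exon and 84 junction probe sets (points) of 8 host loci, with the median of each kind as a bar. The GAS5, SNHG1 and SNHG5 junction medians are 0.53, 0.65 and 0.59 log2, and 1 SNHG1 exon probe set lies at −3.17 log2.

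Gene-level rows gave little. In the authors' gene-level values, 77.9% to 87.1% of rows, by set, had the same value with isoginkgetin and with DMSO. The SNHG15 row was equal between isoginkgetin and DMSO in all 4 sets, and the ZFAS1 row differed in 1 set, HCT116 replicate 1 (11.13 with isoginkgetin against 11.05 with DMSO). The SNHG16 row lay at 13.34 and 13.80 log2 in isoginkgetin-treated HCT116p53-/- cells, the same as with DMSO and untreated. In HCT116 it lay at 13.19 and 14.47 with isoginkgetin, against 13.20 and 14.54 with DMSO. The SNHG1 row lay at 11.99 and 12.37 log2 with isoginkgetin in HCT116, against 11.45 and 11.95 with DMSO, and the SNHG8 row at 9.32 and 10.43 against 9.32 and 10.27. limma on group means called 0 of 67528 rows over both lines (25 at an unadjusted p under 0.05).

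Few rows carried the symbol of a snoRNA alone. Of 34 snoRNAs listed for the 9 hosts, 10 had exon probe sets under their symbol alone, 16 in all. None of the 16 was higher or lower with isoginkgetin than with DMSO in all 4 sets, where 2.76% of all exon probe sets of the array were higher and 3.54% were lower, and exactly equal pairs are common as given above. Their mean differences ran from −0.19 to 0.27 log2. SNORD99, listed for SNHG12, differed by 0.27 ± 0.23 log2, higher in 3 sets and exactly equal in 1. SNORD78, listed for GAS5, differed by 0.23 ± 0.29 log2, higher in 2 sets and equal in 2. SNORD1A, listed for SNHG16, went the other way, by −0.19 ± 0.38 log2, lower in 1 set and equal in 3 (SD, n = 4 sets). SNORA24, the snoRNA of SNHG8, differed by 0.01 ± 0.01 log2 at a level of 14.08 to 14.90, with 2 sets exactly equal. SNORD12, SNORD12B and SNORD12C, the snoRNAs of ZFAS1, differed by −0.02 ± 0.05, 0.07 ± 0.11 and −0.01 ± 0.02 log2 (SD, n = 4 sets). SNORD1C, in an intron of SNHG16, held 7 of the 16 exon probe sets and also had junction probe sets. Its rows therefore cannot be assigned to the snoRNA or to SNHG16 from the annotation. The SNORD1C exon means lay 0.03 ± 0.06 log2 below DMSO. Its junction means differed from DMSO by 0.003 ± 0.095 log2 (SD, n = 4 sets), higher in 2 sets and lower in 2. The array preparation copies total RNA, and how well it captures RNAs this short is not given in the sources used here.

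Other genes of the pathway were counted with the same blocked limma fit on exon means over both lines. Of 16 measured factors of nonsense-mediated decay, 3 fell and none rose, where 3.02% of all groups were called lower and 1.37% higher. These were UPF1, the helicase that drives the pathway (−0.41 log2, SE 0.05, adjusted p = 0.018), UPF2, which activates UPF1 (−0.28 log2, SE 0.03, adjusted p = 0.018), and SMG9, a regulator of the kinase SMG1 (−0.17 log2, SE 0.03, adjusted p = 0.036). Each was lower in all 4 sets, by −0.64 to −0.05 log2 for UPF1 and −0.56 to −0.05 log2 for UPF2. Within single lines, 0 of the 16 were called in HCT116p53-/- cells, where 0.307% of groups were called in either direction. In HCT116, 2 were called lower, where 2.77% of groups were. These were UPF1 (−0.64 log2) and UPF2 (−0.48 log2), each with an adjusted p of 0.018 by limma with block. Without HCT116 replicate 1 the HCT116 differences, from 1 pair of arrays, were −0.64 log2 for UPF1 and −0.56 for UPF2. The median of the 16 was −0.08 log2. Without the HCT116 replicate 1 arrays the same 3 were called lower, at −0.40 log2 for UPF1 (adjusted p = 0.014), −0.32 for UPF2 (adjusted p = 0.0048) and −0.14 for SMG9 (adjusted p = 0.039), where 9.16% of groups were called lower.

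Of 7 measured other substrates of the pathway, of which ATF4 is also in the next list, none was called with all sets and 4 were called higher without HCT116 replicate 1, where 5.39% of groups were. Their median difference was 0.21 log2 in exon means, and ATF3, a stress-induced transcription factor, had the smallest p (0.37 log2, SE 0.09, adjusted p = 0.060). Of 8 genes of the integrated stress response, which lowers translation initiation, 1 was called higher with all sets, where 1.37% of groups were. It was DDIT3, a transcription factor (0.98 log2, SE 0.14, limma with block, adjusted p = 0.022). Exon means of 4 of the 8 were higher in all 4 sets, where 14.2% of groups were, and none was lower in all 4. Without HCT116 replicate 1 the fitted differences over both lines included 1.26 log2 for ASNS and 3.70 for CHAC1. PPP1R15A, at −0.16 log2, was the 1 of the 8 that lay below DMSO in that fit. Among the 4 sets it was higher in 3 and lower in 1. In HCT116 alone, from 1 pair of arrays, PPP1R15A differed by −0.39 log2. The median of the 8 was 0.92 log2. DDIT3 was higher in all 4 sets, and without HCT116 replicate 1 it was 2.3-fold higher than with DMSO.

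Other host genes were read in the same fit. Of 14 further noncoding hosts, 8 were measured, 6 of them on rows shared with their snoRNAs, and none was called, with or without HCT116 replicate 1. Their median difference was 0.05 log2 in exon means and 0.17 log2 in junction means, and 2 of 8 were higher in all 4 sets in junction means. DANCR, a noncoding host, had junction means 0.47 ± 0.10 log2 above DMSO (SD, n = 4 sets; limma with block, adjusted p = 0.062). Of 20 protein-coding hosts measured, none was called over both lines with all sets. In HCT116, 1 was called lower with all sets, where 2.77% of groups were. It was WDR43, a ribosome assembly factor (−0.19 log2, SE 0.04, limma with block, adjusted p = 0.044). Without HCT116 replicate 1 the WDR43 difference in HCT116 was −0.23 log2, from 1 pair of arrays. Over both lines WDR43 was lower in 2 of 4 sets. The same omission gave 0.33 log2 over both lines for RPL7A, a ribosomal protein gene. It gave −0.22 log2 for TBRG4, a mitochondrial RNA-binding protein gene. In HCT116 alone, from 1 pair of arrays, RPL7A differed by 0.51 log2 and TBRG4 by −0.45 log2. The median junction difference of the 20 protein-coding hosts was 0.02 log2.

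Among 22 other TOP mRNAs, none was called over both lines with all sets, with medians of 0.01 log2 in exon means and 0.06 in junction means. RPL19, a ribosomal protein gene, had the smallest p in exon means with all sets (0.08 log2, SE 0.03, limma with block, adjusted p = 0.19). Without HCT116 replicate 1 the fitted differences over both lines included 0.30 log2 for RPS19, 0.15 for RPS15, −0.19 for RPS6 and −0.16 for RPLP0. In HCT116 alone, from 1 pair of arrays, they were 0.72, 0.31, −0.32 and −0.24 log2 in the same order. Among 10 proteins of snoRNP particles and their assembly none was called with all sets. There RUVBL1, an assembly ATPase, had the smallest p (0.06 log2, SE 0.03, limma with block, adjusted p = 0.22). Without HCT116 replicate 1, RUVBL2, another assembly ATPase, differed by 0.13 log2 over both lines and FBL, the box C/D methyltransferase, by −0.28 log2. In HCT116 alone, from 1 pair of arrays, RUVBL2 differed by 0.26 log2 and FBL by −0.50 log2.

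The genes most like SNHG8 and ZFAS1 in pattern were found by correlating exon means over the 12 arrays, after the mean of each set was removed, with the mean of the 2 genes. Among 10175 other genes with a mean level of at least 5 log2, the 5 closest were CEP95 (Pearson r = 0.95), PIGL (0.94), LOC100128770 (0.93), SLC38A6 (0.92) and MRPS33 (0.91). The arrays of 1 set share their experiment, so these values describe the 12 arrays.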

How the data were processed

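Per the design text, the authors processed Human Transcriptome Array 2.0 scans in Transcriptome Analysis Console 4.0 with default settings and deposited log2 values per gene-level row and per probe set; the submitters' processing notes name the same tool. How it corrected background and summarised probes is not given in the sources used here. No sample columns beyond the 12 arrays of each table were present.

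Exon means average the exon probe sets (PSR, at least 3) of an annotation group, and junction means its junction probe sets (JUC, at least 1). limma 3.58.1 (R 4.3.3) was fitted to 6 group means, with Benjamini-Hochberg adjustment over all groups and calls at an adjusted p under 0.05, and again with the set as a block. Leaving out a set leaves 1 array per treatment in its line, so the p-values of such fits measure no spread within that line. The fits were checked on simulated data. With group means removed, arrays sharing line and number correlated at 0.969 to 0.996 (6 pairs), and those of different lines at 0.0648 to 0.0914 (9 pairs), so numbers pair arrays within a line. The design text calls the 2 experiments per line independent.

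Members and lists were chosen with earlier results of these data known. Exon means, junction minus exon means, gene-level rows and single probe sets over genes with 1 symbol were the measures first set. The loci with several symbols were added after the annotation was seen, and junction means after the members' junction values had been seen to be higher with isoginkgetin, so their blocked calls are post hoc. All 9 members are named; others are list members called, or with the smallest p, probe-set extremes of each locus, and the 5 closest profiles. ZNFX1, DANCR's junction value and PSR11022097's arrays were singled out after values were seen. With the block, 33783 gene-level rows have a spread of 0, so blocked gene-level calls are not interpreted.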

Additional observations from a re-analysis of the deposited data

How the results depend on the processing

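The counts of called members were 0 under limma on group means, and 0 under every other setting run, except that the gene-level rows gave 0 to 1 in HCT116 and over both lines when sets were left out (1 without HCT116 replicate 2, with the replicate block, where many rows have a spread of 0). With the replicate block the count stayed 0 for exon means, junction minus exon means, gene-level rows and single probe sets. The added count of loci called in junction means over both lines was 0 in the fit without a block. It was 2 with the replicate block, where 0.252% of groups were called higher. With the random set block it was 3 over both lines and 2 in HCT116. The share of all groups called with the random set block is not given here, so its counts cannot be set against it. When sets were left out, the count of loci called in exon means changed between fits, over both lines and in HCT116. Such fits leave 1 array per treatment in a line, so these exon counts are not interpreted. With the replicate block and any 1 set left out, or with only junction probe sets of a mean level of at least 5 (chosen after seeing the data), the count of loci called in junction means over both lines was 0.

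Some values that were not called changed sign; the cause was not tested. The exon difference of ZFAS1 over both lines was −0.249 log2 with the median of its probe sets in place of the mean. With untreated cells as control, the exon difference of SNHG15 was −0.00724 log2 and the junction minus exon difference of SNHG12 −0.0452; this difference was −0.0438 with a level of at least 5. Leaving out sets gave −0.0624 to 0.129 log2 for SNHG7 junctions, −0.295 to 0.111 for SNHG12 junctions, −0.155 to 0.196 for SNHG12 junction minus exon and −0.0400 to 0.432 for SNHG15 junction minus exon. Quantile scaling, array median centring and the intensity trend reversed no difference of the 8 loci. The mean of all gene-level rows of a symbol was not run, since each member had 1 row, nor was the random block on single probe sets. With 2 arrays a group, or 1 in the line that lost a set, differences under the spread of sets are not resolved.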
